A study of Mus musculus with 4 samples.

Results

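The genes of the albumin family and of the other carrier proteins that the fetal liver secretes were followed in fibroblasts undergoing hepatocyte reprogramming with or without Cre. They were Alb, Afp, Gc, Ttr, Ambp, Ahsg, Fetub, Apom, Orm1 and Hpx, chosen by gene symbol, and made up 10 of the 55397 genes in the table. Mouse embryonic fibroblasts (MEFs) were prepared from the distal limbs of several pooled E13.5 C57BL/6J embryos carrying floxed Prox1 alleles, Prox1(fl/fl). All cultures received lentivirus with the 4-in-1 cassette of liver transcription factors (LV.4TF), and the methods describe an rtTA lentivirus and doxycycline for its induction. The Prox1 KO group also received FUW-GFP-Cre, and the control group FUW-GFP-dCre, a Cre without activity (ΔCre). Total RNA of whole cultures was taken at day 14, so each value averages converted and unconverted cells. There were 2 libraries in each group, with 42469031 to 48524008 reads on genes. The comparison asks how the carrier genes respond when Prox1, a homeobox transcription factor of the liver, is deleted during reprogramming.

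Albumin and its relatives are the main transport proteins of blood plasma. Alpha-fetoprotein takes the place of albumin in the fetus and is shut down after birth, while vitamin D-binding protein, transthyretin, hemopexin, the fetuins and the lipocalins carry vitamins, hormones, haem, mineral and lipids. The genes are strongly expressed in hepatocytes, and several of them also in the visceral endoderm of the yolk sac, and their RNAs are common readouts of hepatocyte identity.

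Alb, Afp and Gc are relatives on chromosome 5 (GRCm38). Alb spans 90460897 to 90476602 and Afp spans 90490737 to 90508907, both on the plus strand with a gap of 14.1 kb, and Gc spans 89417522 to 89457898 on the minus strand, 1003.0 kb from Alb with 5 protein-coding genes between them. RefSeq promoters (GRCm38.p6) were found for 8 of the 10 genes, without Ttr and Orm1. The 250 bases before the RefSeq start of the 3 relatives are shown because they share a match to GTTAATNAT, the start of the binding motif of HNF1, a homeodomain factor of the liver. The match is in capitals and the rest in lower case, each 5′ to 3′ on the strand of the gene, at chr5:90460620-90460869 (plus) for Alb, chr5:90490464-90490713 (plus) for Afp and chr5:89457899-89458148 (minus) for Gc.
Alb: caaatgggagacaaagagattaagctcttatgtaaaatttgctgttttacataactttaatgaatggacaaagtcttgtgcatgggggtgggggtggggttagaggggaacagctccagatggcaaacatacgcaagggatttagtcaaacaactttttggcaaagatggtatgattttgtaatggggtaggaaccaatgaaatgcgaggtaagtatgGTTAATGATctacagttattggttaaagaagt
Afp: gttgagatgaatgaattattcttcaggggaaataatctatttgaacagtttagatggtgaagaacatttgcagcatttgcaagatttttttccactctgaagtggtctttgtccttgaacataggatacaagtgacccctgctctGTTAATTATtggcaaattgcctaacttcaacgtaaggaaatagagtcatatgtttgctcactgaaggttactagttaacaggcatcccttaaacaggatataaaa
Gc: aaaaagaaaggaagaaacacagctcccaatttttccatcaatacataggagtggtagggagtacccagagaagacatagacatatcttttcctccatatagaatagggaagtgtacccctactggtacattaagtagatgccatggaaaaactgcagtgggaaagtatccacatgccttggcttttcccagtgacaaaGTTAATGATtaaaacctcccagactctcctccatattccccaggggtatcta
Counted from the RefSeq start, the matches covered bases -32 to -24 in Alb, -105 to -97 in Afp and -52 to -44 in Gc. For Alb and Afp the RefSeq start lies upstream of the gene start given above, which is from GENCODE, and for Gc they coincide. With both strands searched, 0.737% of 32851 RefSeq promoters held such a match, and none was found in the windows of Ambp, Ahsg, Fetub, Apom and Hpx. The motif was chosen after the sequences had been read. Of the other letters searched on both strands, CCAAT was found before Alb, Afp, Gc, Ambp, Fetub and Hpx and in 33.8% of all promoters, and in Afp it overlapped the HNF1 match. TATAAA was found before Afp and Fetub (12.4% of promoters) and TGTTTAC, a FOXA motif, before Fetub (3.17%), whereas CAAAGTCCA, an HNF4 motif (0.384%), was found before none of the 8 genes. A match describes letters only, and binding was not measured.

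The check of the targeted gene showed no decrease in the libraries labelled Prox1 KO. Prox1 had normalized counts of 60.6 and 25.5 in control replicates 1 and 2 and of 72.7 and 61.6 in the libraries labelled Prox1 KO, from 24 to 70 reads. Both libraries labelled Prox1 KO thus lay above both controls, as they did for 21.8% of all tested genes. The margin over control replicate 1 was narrow (61.6 against 60.6). The log2 fold change was 0.75 (SE 0.27, 95% interval 0.17 to 1.32), with an adjusted p of 0.0936 in limma (unadjusted p = 0.0142 in limma). The interval lay above 0, but it rests on the block. The differences were 0.26 in replicate 1 and 1.24 in replicate 2. A whole-gene count includes any exon that Cre leaves in place, and the antisense genes Prox1os and Gm28172 overlap exons of Prox1, so deletion itself was not measured. Each direction below therefore rests on the labels.

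Of the 10 carrier genes, 8 reached a mean of 10 normalized counts (read counts divided by a size factor per library) and were tested, while Ambp and Ahsg did not. Afp, Gc and Ttr were lower in the libraries labelled Prox1 KO, none was higher, and Alb, Fetub, Apom, Orm1 and Hpx did not pass the threshold. The test was limma on log2(normalized counts + 1) with the replicate number as a block and a Benjamini-Hochberg adjusted p under 0.05 over all 15809 genes tested. By this rule 11.4% of all tested genes were called, 6.29% as lower and 5.09% as higher, against 3 of 8 carrier genes as lower. The median log2 fold change was -0.23 over the 8 genes and -0.0022 over all genes tested. Both libraries labelled Prox1 KO lay below both controls for 4 of the 8 (Afp, Gc, Ttr and Apom), beside 22.6% of all tested genes, and above them for none, beside 21.8%. These calls depended on the block, since limma without it called none of the 8 genes and 0 of 15809 in all, with 2 of the 8 and 1783 in all at an unadjusted p under 0.05. The limma p-values measure the spread left after the block, with a variance estimated mostly from other genes and little from the gene itself. Nothing in the labels says which cultures the replicates came from, so whether this covers a spread between independent cultures is not known. Fewer hepatocyte-like cells and less RNA per cell cannot be told apart in bulk samples.

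**Figure D1:**
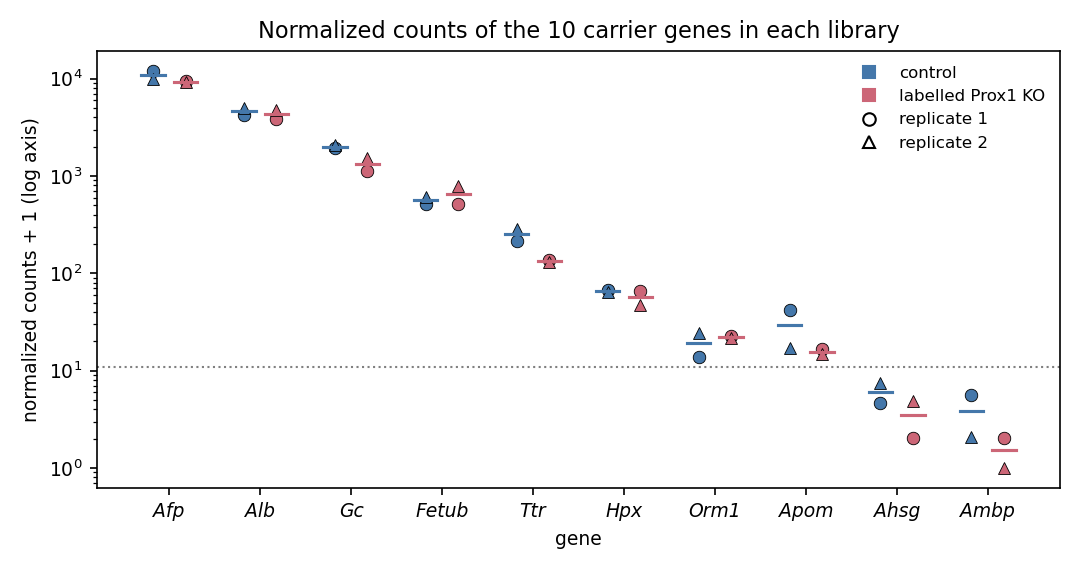
Normalized counts + 1 on a log axis for each carrier gene, not corrected for length, with genes in falling order of mean count per kb. Circles mark replicate 1, triangles replicate 2 and bars the mean of the 2 libraries of a group. Controls are in blue and libraries labelled Prox1 KO in red. Afp is highest in every library, up to 12115, Ahsg and Ambp lie under the dotted line at a count of 10, and the red points of Gc and Ttr sit below the blue ones.

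Levels of different genes were compared as normalized counts per kb of the longest annotated transcript. In each of the 4 libraries the order was Afp, Alb, Gc, Fetub, Ttr and Hpx, and the ranges of these 6 genes over the libraries did not overlap. Afp had 4439 to 5873 per kb, above 96.4% to 97.2% of the tested genes. Alb had 1887 to 2469 per kb and Gc 632 to 1153. Below them, Fetub had 321 to 495, Ttr 109 to 242 and Hpx 30.6 to 44.1 per kb. Orm1 (16.6 to 30.2) and Apom (13.51 to 40.78) changed places between libraries, and the range of Apom reached that of Hpx, although Hpx was above both in each library. The values of Ahsg (0.700 to 4.30) and Ambp (0 to 3.62) overlapped. The 3 albumin relatives held 93.9% to 95.5% of the summed normalized counts of the 10 genes. The whole group made up 0.0343% to 0.0429% of the reads on genes.

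Alb encodes serum albumin, the main protein of plasma. It had 4197 and 5021 normalized counts in the controls and 3838 and 4766 in the libraries labelled Prox1 KO. The ranges of the groups overlapped, because replicate 1 was lower than replicate 2 in both groups. Within a replicate number, the library labelled Prox1 KO was the lower one, by a log2 difference of -0.13 in replicate 1 and -0.08 in replicate 2. The log2 fold change of Alb was -0.10 (SE 0.04, 95% interval -0.19 to -0.01), with an adjusted p of 0.158 in limma. The interval lay below 0 (unadjusted p = 0.0317 in limma), but it rests on the block. Without the block the adjusted p of Alb was 0.786 in limma, and in DESeq2 with the block it was 0.767. How large a decrease of Alb these libraries leave room for was thus not settled.

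Afp encodes alpha-fetoprotein, the albumin of fetal plasma. Its normalized counts were 12115 and 9839 in the controls and 9555 and 9157 in the libraries labelled Prox1 KO. Both of the latter lay below both controls, by a narrow margin for control replicate 2. Afp fell by 0.22 on the log2 scale (SE 0.05, 95% interval -0.33 to -0.12, limma adjusted p = 0.00822), or to 0.857 times the control level. The decrease was uneven, with -0.34 in replicate 1 and -0.10 in replicate 2, so that without the replicate 1 libraries a difference of -0.10 remained. The differences of both replicates lay outside the limma interval, whose variance came mostly from other genes. In DESeq2 with the block the adjusted p of Afp was 0.611. The antisense gene Gm43449 overlaps exons of Afp, and whether the counting used strand is not given in the sources used here.

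Gc encodes vitamin D-binding protein, which carries vitamin D metabolites and scavenges actin. The controls had 1940 and 2077 normalized counts and the libraries labelled Prox1 KO 1138 and 1517. The groups were well apart, and the gap between them was wider than the spread within either group. Gc fell by 0.61 on the log2 scale (SE 0.07, 95% interval -0.75 to -0.47, limma adjusted p = 2.94e-05), to 0.655 times the control level. Both replicates went down, by -0.77 and -0.45, each beyond the counting error of its reads (95% intervals -0.88 to -0.66 and -0.55 to -0.36). Such intervals cover counting error only, since the reads carry no molecular identifiers. The differences of both replicates lay outside the limma interval, whose variance came mostly from other genes.

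Ratios within a library do not depend on its size factor. Gc over Alb per kb was 0.522 and 0.467 in the controls and 0.335 and 0.359 in the libraries labelled Prox1 KO, with no overlap. The means were 0.495 ± 0.0388 and 0.347 ± 0.0174 (SD, n = 2), and the exact two-sided permutation p was 0.333, the smallest that 2 against 2 libraries can give. Afp over Alb per kb was 2.85 and 1.93 in the controls and 2.45 and 1.89 in the libraries labelled Prox1 KO. This ratio differed more between replicate numbers than between groups (exact permutation p = 0.667, n = 2 per group), and Afp exceeded Alb in every library. With all merged exons as the length, which raises the length of Afp, the ratio was 1.34 to 2.01 over the 4 libraries.

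**Figure D2:**
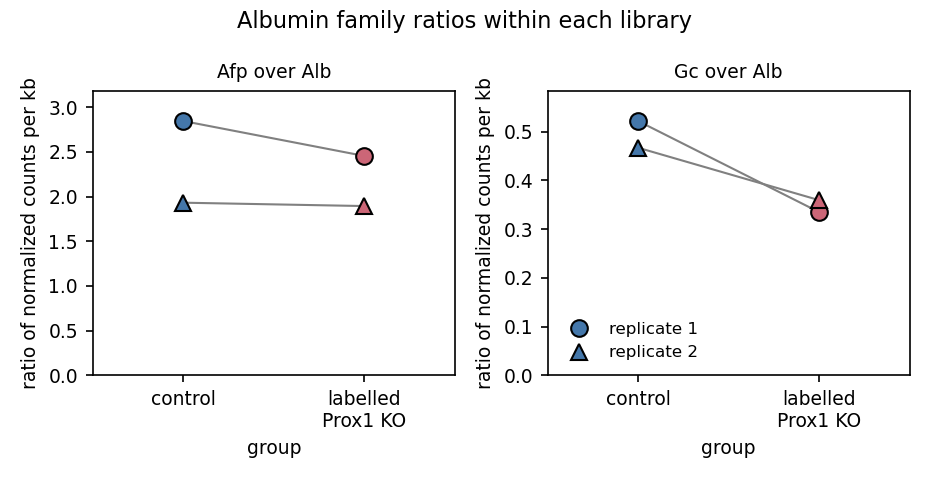
Ratios of normalized counts per kb within each library, Afp over Alb on the left and Gc over Alb on the right, with circles for replicate 1, triangles for replicate 2 and grey lines joining libraries of the same replicate number. Gc over Alb falls along both lines, from 0.522 to 0.335 and from 0.467 to 0.359, whereas the Afp over Alb lines are set apart by replicate number.

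Ttr encodes transthyretin, which carries thyroid hormone and, bound to retinol-binding protein, vitamin A. Its normalized counts were 216 and 287 in the controls against 136 and 129 in the libraries labelled Prox1 KO. The groups did not overlap. Ttr had the largest decrease among the 3 genes called, with a log2 fold change of -0.90 (SE 0.15, 95% interval -1.23 to -0.58, limma adjusted p = 0.00105), or 0.534 times the control level. Both replicates went down, with -0.66 in replicate 1 and -1.15 in replicate 2. The reads behind it were 131 to 270 per library.

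The lipocalins bind small lipophilic molecules in a barrel-shaped fold. Apom, the carrier of sphingosine-1-phosphate on high-density lipoprotein, had 41.3 and 16.0 normalized counts in the controls and 15.6 and 13.7 in the libraries labelled Prox1 KO. Only control replicate 1 stood clear of the others. The log2 fold change was -0.78 (SE 0.39, 95% interval -1.61 to 0.05), which did not pass (limma adjusted p = 0.242), and replicate 2 alone gave -0.21. Orm1 encodes alpha-1-acid glycoprotein, an acute-phase carrier of drugs and lipids. Its normalized counts were 12.9 and 23.4 in the controls and 21.8 and 20.5 in the libraries labelled Prox1 KO. The groups overlapped and the replicates went opposite ways (0.72 and -0.18), with a log2 fold change of 0.27 (SE 0.38, limma adjusted p = 0.729). Orm1 shares 6.95% of its 100-base windows with its neighbour Orm2, so its counts are less certain. Ambp, which encodes the lipocalin alpha-1-microglobulin together with bikunin, had 5 and 1 reads in the controls and 1 and 0 in the libraries labelled Prox1 KO. At 0 reads the exact Poisson upper limit (95% interval) is 3.69, so a difference in Ambp was not detectable at this depth.

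The fetuins belong to the cystatin family and lie side by side on chromosome 16, with 18.9 kb between Ahsg and Fetub. Fetub, which encodes fetuin-B, an inhibitor of the protease ovastacin, had 513 and 609 normalized counts in the controls and 515 and 790 in the libraries labelled Prox1 KO. Replicate 1 was level between the groups, and the highest value was that of replicate 2 labelled Prox1 KO. The log2 fold change was 0.19 (SE 0.09, 95% interval -0.01 to 0.39, limma adjusted p = 0.227), from 0.01 in replicate 1 and 0.37 in replicate 2. Ahsg, which encodes fetuin-A, a plasma inhibitor of mineral precipitation, had 4 and 6 reads in the controls and 1 and 4 in the libraries labelled Prox1 KO. It is a major plasma protein gene of the fetal liver, yet its counts were near 0 in these cultures and its groups overlapped. The neighbours thus differed in level, with 496 to 808 reads for Fetub. Reads of Ahsg cannot be separated from those of the antisense gene Gm30505 unless strand was used.

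Hpx encodes hemopexin, which binds free haem and delivers it to the liver. It had 66.1 and 62.8 normalized counts in the controls and 65.5 and 45.9 in the libraries labelled Prox1 KO. The first of these fell between the controls and the other lay below them. The log2 fold change was -0.23 (SE 0.23, 95% interval -0.72 to 0.27, limma adjusted p = 0.608). At this interval neither a moderate decrease nor a small increase could be told from no change.

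**Figure D3:**
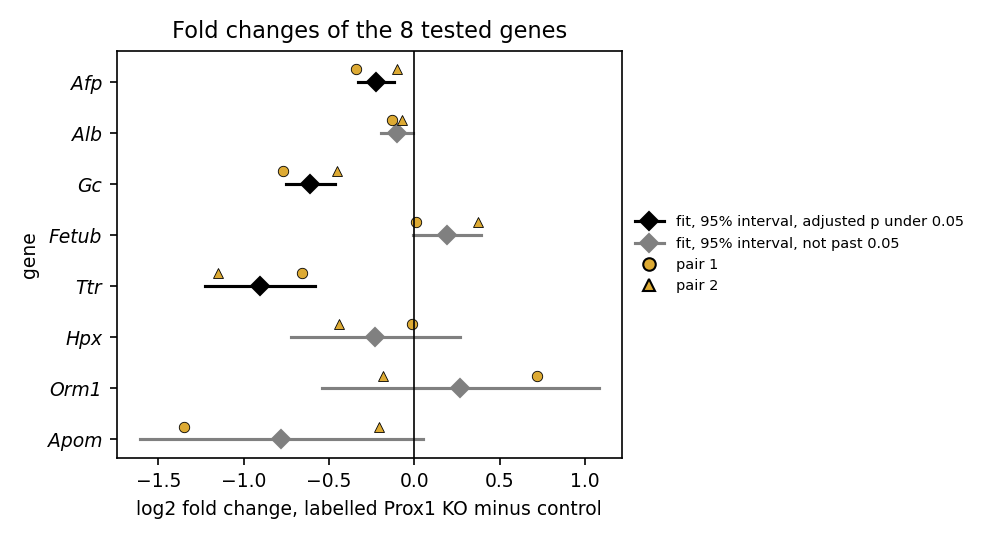
Log2 fold changes of the 8 tested carrier genes, labelled Prox1 KO minus control, with diamonds for the limma fit, lines for its 95% interval, and circles and triangles for the differences within replicates 1 and 2. The 3 black diamonds (Afp -0.22, Gc -0.61, Ttr -0.90) passed the threshold, and the intervals widen towards Apom and Orm1, the genes with the fewest reads.

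The carrier genes and the lists below were chosen with earlier results of these data known. Shares called lower or higher therefore describe a list and do not test for an excess. Further carriers of plasma were examined as a list of 18 genes. Of the 13 tested, 5 were lower, beside the 6.29% of all tested genes, and none was higher, with a median log2 fold change of -0.38. Rbp4, the retinol carrier that circulates bound to transthyretin, had 1476 and 1442 normalized counts in the controls and 1115 and 1107 in the libraries labelled Prox1 KO (log2 fold change -0.39, limma adjusted p = 0.000445). The kininogens Kng1 (-0.53) and Kng2 (-0.50), cystatin relatives of the fetuins that yield bradykinin, and the copper-binding ferroxidase Cp (-0.33) were also lower. The decrease of the kininogens came mostly from replicate 1, and without it -0.24 remained for Kng1 and -0.17 for Kng2. Apod, a lipocalin with the highest mean of the list that fibroblasts express too, fell by 0.38 on the log2 scale, and by 0.14 without replicate 1. DESeq2 with the block called only Rbp4 and Cp of the list, and after quantile normalization Kng2 was no longer called. Sequence shared between Kng1 and Kng2 was not examined. Afm encodes afamin, the vitamin E-binding member of the albumin family, and lies next to Afp, with a match to GTTAATNAT before its own start. It had 17 to 21 reads in the controls against 9 to 13 in the libraries labelled Prox1 KO. The groups did not overlap, but Afm did not pass the test (log2 fold change -0.72, SE 0.41, limma adjusted p = 0.314).

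Receptors and partners of the carriers formed a list of 18 genes. Of the 13 tested, 9 were lower, beside 6.29% of all tested genes, and none was higher, beside 5.09%, with a median log2 fold change of -0.36. DESeq2 with the block called 6 of them and lost Amn, Dab2 and Tnfaip6. Lrp2, which encodes megalin, an endocytic receptor for vitamin D-binding protein, transthyretin and retinol-binding protein, had 702 and 743 normalized counts in the controls and 232 and 286 in the libraries labelled Prox1 KO. The groups were far apart, with a log2 fold change of -1.48 (SE 0.10, limma adjusted p = 2.48e-07). Cubilin (Cubn, log2 fold change -0.78), which takes up albumin and vitamin D-binding protein with megalin, and its anchor amnionless (Amn, -0.72) were lower too. So was Fcgrt, the heavy chain of the neonatal Fc receptor that recycles albumin, at -0.53 (limma adjusted p = 3.86e-06). Tnfaip6, which transfers the heavy chains of inter-alpha-inhibitor to hyaluronan, had -0.68, and -0.33 without replicate 1. Itih2, one of these heavy chains that bikunin joins, had 2720 and 3574 normalized counts in the controls and 2274 and 2606 in the libraries labelled Prox1 KO, although Ambp was nearly absent. Of the other Itih genes of the list, Itih5 was lower (log2 fold change -0.56, limma adjusted p = 0.000368). Itih4 did not pass (0.35, limma adjusted p = 0.685), and Itih1 and Itih3 had too few reads to be tested. Lrp1, the receptor for haem-hemopexin and the gene of the list with the highest mean normalized count (not corrected for length), had a log2 fold change of 0.07 (SE 0.05, limma adjusted p = 0.448). After quantile normalization Lrp1 was called higher and B2m, the light chain of the neonatal Fc receptor, was no longer called.

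A list of 13 genes held markers of hepatoblasts, the fetal liver progenitors in which Afp is active, and known repressors of Afp. All 13 were tested, 9 were lower, beside 6.29% of all tested genes, and 1 was higher, beside 5.09%, with a median log2 fold change of -0.46. The epithelial genes Epcam (-1.58), Krt8 (-1.30), Cdh1 (-1.12) and Krt18 (-1.06) had the largest changes of the list. Epcam had 151 and 227 normalized counts in the controls and 56.1 and 67.4 in the libraries labelled Prox1 KO. H19, a fetal imprinted RNA that is silenced together with Afp after birth, had a log2 fold change of -0.64 and the highest mean. Which cells of the cultures expressed H19 and the other genes of this list was not measured. The gene that was higher was Zfhx3, which encodes a homeodomain repressor of Afp, with 2095 and 2164 normalized counts in the controls and 2434 and 2459 in the libraries labelled Prox1 KO (log2 fold change 0.20, limma adjusted p = 0.0149). DESeq2 with the block called 8 genes of the list, all lower, and neither Zfhx3 nor Dlk1. The other known repressors did not pass, with 0.14 for Zbtb20 (limma adjusted p = 0.144) and 0.03 for Zhx2 (limma adjusted p = 0.896).

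**Figure D4:**
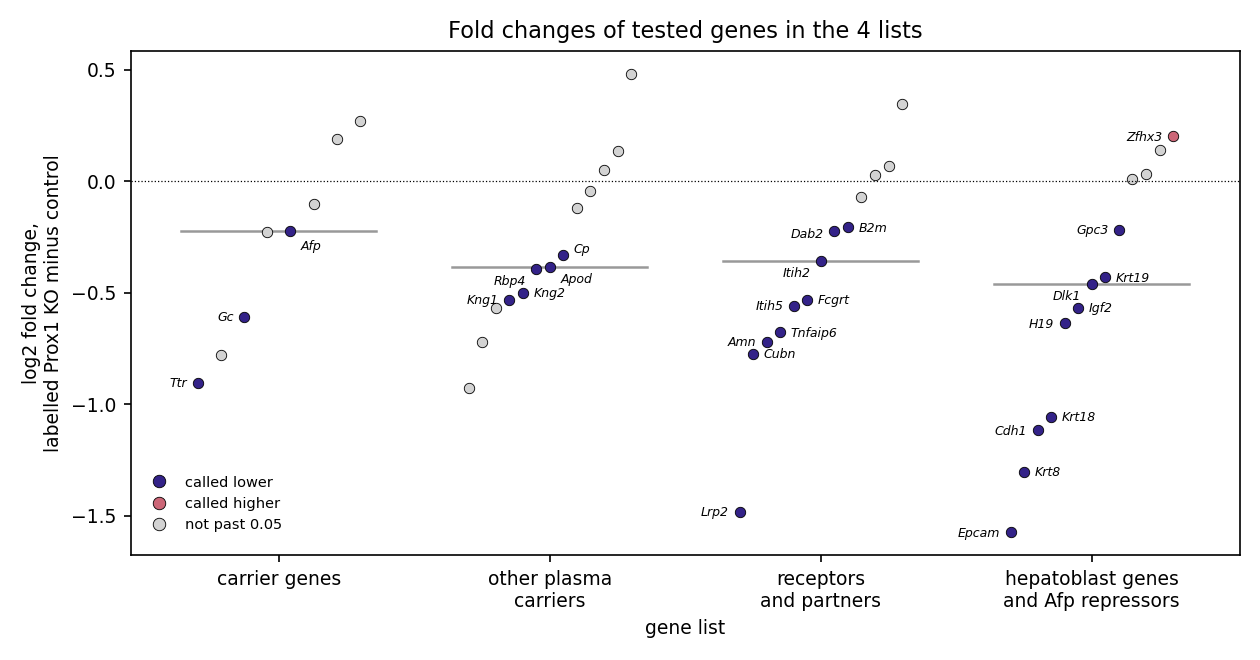
Log2 fold changes, labelled Prox1 KO minus control, of the tested genes in 4 lists, each point a gene, with genes called lower in dark blue and labelled, the gene called higher in red, and grey bars for the list medians. The medians run from -0.23 for the carrier genes to -0.46 for the hepatoblast genes and Afp repressors, and Lrp2 (-1.48) and Epcam (-1.58) lie lowest.

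Markers of the cell types that such cultures may hold were summed per library. Of all tested genes, 6.29% were called lower and 5.09% higher, beside which the calls below stand. Hepatocyte markers (8 of 11 at a mean of 10 or more, without Apoc3, Cyp2e1 and Tat) summed to 7849 and 9922 normalized counts in the controls. In the libraries labelled Prox1 KO they summed to 5879 and 7570, and 4 of them were lower. Alb and Ttr of this list are also carrier genes, and Ttr is among the lower ones. Alb held a large part of the sum, with 4197 and 5021 in the controls and 3838 and 4766 in the others. Fibroblast markers were all present, summed to 775006 and 968614 in the controls and 691415 and 885318 in the libraries labelled Prox1 KO, where 4 of 8 were lower. This was the highest sum of the 8 marker lists in every library. Markers of the visceral endoderm, where Afp, Ttr and the cubilin complex are also active, summed to 6362 and 8283 in the controls. They summed to 3727 and 4475 in the libraries labelled Prox1 KO, with 3 of 4 tested lower (Amn, Cubn and Lrp2). Apoa4 and Sox17 were under a mean of 10. The 3 lower genes are also in the list of receptors and partners. Cubn alone had 5422 and 7223 in the controls and 3349 and 3989 in the others, most of each sum. Intestinal markers summed to 2424 and 3202 and to 1361 and 1735, with Cdx2 at 0 in every library and 2 of 3 tested lower. Cholangiocyte markers summed to 89928 and 127949 and to 86600 and 111682, with 2 of 6 lower (Krt19 and Epcam, both also among the hepatoblast genes). Most of that sum was Spp1, with 83444 and 120511 in the controls and 81073 and 106099 in the others, which did not pass the test (log2 fold change -0.11, limma adjusted p = 0.162). Myocyte markers summed to 1228 and 1394 and to 1670 and 1683, with Des higher of 2 tested and Myog, Myh3 and Tnnt3 under a mean of 10. Endothelial markers summed to 577 and 515 and to 957 and 780, of which Kdr alone was tested and was higher. Macrophage markers summed to 281 and 261 and to 285 and 330, with Adgre1 at 0 in every library and none of 2 tested called. The part of these cell types in the lower levels of Afp, Gc and Ttr was not tested.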

How the data were processed

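Bulk RNA-seq of 4 libraries (2 labelled Prox1 KO and 2 control) was used. The authors mapped reads to mm10 with STAR and deposited normalized counts, a signal per gene that divides read counts by DESeq2 size factors. The counting tool and annotation release are not given in the sources used here. The deposited table of the authors' own comparison (fold changes and p-values) was not used.

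Whole reads were recovered from the step between values: 100% of positive values were whole within 0.01, and edgeR called 1800 genes on them. The 15809 genes averaging 10 or more normalized counts were tested with limma 3.58.1 in R 4.3.3 on log2(normalized counts + 1), with an intensity trend, the replicate number as a block and Benjamini-Hochberg adjustment (threshold 0.05), after the script had been tested on simulated data. The block follows the study's methods, where the MEF line is a covariate. Whether the numbers stand for lines is not stated, and deviations of same-numbered libraries correlated at 0.402 (0.335 on autosomes). Libraries of a group differed beyond sampling noise in 34.3% to 35.4% of genes (chi-square test), so none was a duplicate. Alternatives were no block, pseudocounts of 0.1 and 10, other filters, quantile normalization, edgeR 4.0.16, DESeq2 1.42.0 and leaving out each replicate. Exact permutation tests used scipy 1.17.1. Pair intervals are exact counting intervals on the reads.

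Positions and transcript lengths came from GENCODE vM21 (GRCm38), which held 55137 of the 55397 gene identifiers. The members, lists, markers and tests were chosen with earlier results of these data known. Named genes were the 10 carrier genes, Prox1 and, of each list, the gene with the highest mean and up to 4 past the threshold with the largest change. Afm, Cp, Fcgrt, Itih1, Itih2, Itih3, Itih4, Itih5, Zfhx3, Zbtb20, Zhx2, B2m, Dab2, Dlk1 and the marker genes are outside that rule and were named after their values were seen.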

Additional observations from a re-analysis of the deposited data

How the results depend on the processing

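The calls of Afp, Gc and Ttr depended on the replicate block, and the pairing behind it is not stated by the labels. With no replicate block, limma called 0 of the carrier genes (2 at an unadjusted p under 0.05), 0 of the other plasma carriers (2), 0 of the receptors and partners (8) and 0 of the hepatoblast genes and Afp repressors (9), and the adjusted p was 0.464 for Afp and 0.315 for Gc and Ttr at the same fold changes. The block is the part of the fit that removes the difference between replicate numbers. DESeq2 with the block called 2 of the other plasma carriers (Rbp4 and Cp) and, of the carrier genes, Gc and Ttr but not Afp (adjusted p 0.611). It also called 6 of the receptors and partners and 8 of the hepatoblast genes and Afp repressors, where Zfhx3 was lost. It called 483 genes in all, against 1798 in limma, and the cause was not tested. Gc and Ttr passed in 8 of 9 settings and Afp in 7 of 9, whereas Alb and Fetub passed in 0 of 9, and none of the 3 called genes changed direction. Orm1, which was not called, had 0.27 with all libraries and -0.18 without replicate 1. The median log2 fold change of the carrier genes was -0.42 with no filter, when Ambp and Ahsg entered, and -0.19 after quantile normalization, and leaving out each replicate gave -0.24 to -0.20. Depth limits Ambp, Ahsg, Apom, Orm1, Hpx and Prox1, which had at most 72 reads in a library.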
